A study of Homo sapiens with 18 samples.

Results

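Among 58336 genes in the deposited tables, 8 that shape the surface of Ewing sarcoma cells were examined. They encode 6 surface proteins (CD99, XG, IL1RAP, LINGO1, STEAP2 and ROR1) and 2 enzymes that build gangliosides (B4GALNT1 and ST8SIA1), and were taken by symbol from 3 count tables. The tables come from RNA sequencing of TC-32, TC-71 and A673, established lines of a bone and soft tissue tumour, Ewing sarcoma, that is driven by a fusion of EWSR1 to FLI1. Each line has 3 libraries from cells reverse-transfected with siFLI1, a small interfering RNA that targets FLI1 and with it the fusion transcript, and 3 from cells given the control siNeg, both at 20 nM. The column names give 48 h for TC-32 and TC-71 and no time for A673. TC-32 and TC-71 were grown in RPMI and A673 in DMEM, so in comparisons with A673 the line and its medium cannot be told apart. The siRNA does not separate the fusion from unfused FLI1, and knockdown was partial. FLI1 stood at 83.7, 84.2 and 82.5 counts per 1e6 (CPM) in the A673 siNeg libraries and at 20.1, 19.7 and 19.4 in siFLI1, which is 23.7% of its siNeg level. In TC-71 it stood at 43.4, 43.5 and 40.2 against 14.6, 15.1 and 17.2 CPM (36.9% left), and in TC-32 at 48.3, 50.9 and 45.7 against 23.9, 23.8 and 24.7 (50.1% left). The labels do not say whether replicates are separate cultures, so each p-value here measures only the spread between these libraries.

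Libraries of TC-32 summed to 24102487 to 33669271 counts, those of TC-71 to 19685354 to 37234528, and those of A673, the deepest, to 114564479 to 120993595. A list of 6 Ewing sarcoma markers summed to 2138 to 2237 CPM in the TC-32 siNeg libraries, 1803 to 1823 in TC-71 and 2989 to 3081 in A673. In siFLI1 these sums were 532 to 535, 418 to 457 and 1178 to 1191 CPM, and the list holds CD99, so it is no independent check of that gene. CD99 is listed at 0 in TC-71 and was not analysed there, while its siNeg mean was 352 CPM in TC-32 and 800 in A673. The TC-71 sums therefore rest on 5 markers and cannot be set beside those of the other lines. Markers of other cell types were low, but some moved with the siRNA. The 4 leukocyte markers summed to 1.33 to 2.81 CPM in TC-32 siNeg and 7.76 to 9.81 in siFLI1, and to 6.89 to 8.62 and 12.6 to 14.1 in A673. CD68 made up nearly all of this, while CD3E was at 0 in all 12 libraries of TC-32 and A673, and CD68 shares 81.6% of its exon bases with another gene on its strand. In TC-32 the 3 epithelial markers went from a sum of 0.281 to 0.315 CPM to one of 4.47 to 6.10, through CDH1, and the 3 myogenic markers from 0.281 to 0.405 CPM to 5.99 to 7.50, through DES. In A673 the myogenic sum went from at most 0.0364 CPM to between 0.398 and 0.530. The 3 endothelial markers summed to 0.773 to 1.15 CPM in A673 siNeg and 2.02 to 2.30 in siFLI1, and in TC-71 to at most 0.0929 and to 0.325 to 0.588, while TC-32 held at most 3.08 in siNeg and 2.32 in siFLI1. These sums hide opposite moves in TC-32 and A673. Mean CDH5 went from 0.299 to 1.52 CPM in TC-32 and from 0.413 to 1.73 in A673. Mean PECAM1 went from 2.24 to 0.474 CPM in TC-32 and from 0.529 to 0.247 in A673. The 3 neuroblastic markers summed to 0.0273 to 0.0449 CPM in A673 siNeg and 0.299 to 0.426 in siFLI1, and to at most 0.251 in the other lines. The part of these markers in the results was not tested.

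CD99 is a small membrane glycoprotein whose strong membrane staining is used in the diagnosis of Ewing sarcoma, and XG is its homologue, the carrier of the Xg blood group antigen, encoded next to it across the boundary of the pseudoautosomal region of the sex chromosomes. IL1RAP is the shared co-receptor of the interleukin-1 receptor family, LINGO1 a leucine-rich repeat protein of the Nogo receptor complex of neurons, STEAP2 a metalloreductase and ROR1 a receptor-like kinase that binds WNT5A. Gangliosides are sialic acid-bearing glycolipids of the outer membrane. ST8SIA1 (GD3 synthase) adds a sialic acid to GM3 to make GD3, and B4GALNT1 (GM2/GD2 synthase) adds N-acetylgalactosamine to give GM2 or, from GD3, GD2, a target of antibody therapy in neuroblastoma.

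FLI1 and the fusion bind DNA through the ETS domain, which recognises a GGAA core, and repeats of GGAA are known as binding sites of the fusion. Promoter sequence was therefore read for the members, from RefSeq entries of the GRCh38.p14 build that give the 250 bases before a transcript start. Entries were found for 7 of the 8 members, all but B4GALNT1. The 4 sequences shown belong to genes that moved in different ways with siFLI1: ROR1 and IL1RAP rose in each line, STEAP2 fell in each line, and XG changed in opposite directions. Capitals mark GGAA, or TTCC where the core lies on the other strand. IL1RAP and STEAP2 are cut where the first annotated exon base begins, and the STEAP2 sequence is the first of 2 entries, both of which start inside the gene as GENCODE release 44 draws it.
ROR1 chr1:63773767-63774016, plus strand: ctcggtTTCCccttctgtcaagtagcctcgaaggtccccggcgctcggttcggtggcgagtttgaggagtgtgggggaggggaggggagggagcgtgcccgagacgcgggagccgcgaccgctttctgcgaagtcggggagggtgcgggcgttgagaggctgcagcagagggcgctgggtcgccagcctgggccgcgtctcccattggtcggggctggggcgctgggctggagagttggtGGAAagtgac
IL1RAP chr3:190513835-190514050, plus strand: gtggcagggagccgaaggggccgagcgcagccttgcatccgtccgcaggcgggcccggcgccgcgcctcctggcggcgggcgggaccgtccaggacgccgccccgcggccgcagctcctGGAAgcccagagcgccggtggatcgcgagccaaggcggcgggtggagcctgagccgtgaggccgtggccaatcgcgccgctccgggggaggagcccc
STEAP2 chr7:90211490-90211685, plus strand: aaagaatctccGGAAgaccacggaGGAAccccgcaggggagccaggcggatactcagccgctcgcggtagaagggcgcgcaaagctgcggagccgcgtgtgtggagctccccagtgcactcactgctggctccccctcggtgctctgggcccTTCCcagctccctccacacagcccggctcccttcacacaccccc
XG chrX:2751790-2752039, plus strand: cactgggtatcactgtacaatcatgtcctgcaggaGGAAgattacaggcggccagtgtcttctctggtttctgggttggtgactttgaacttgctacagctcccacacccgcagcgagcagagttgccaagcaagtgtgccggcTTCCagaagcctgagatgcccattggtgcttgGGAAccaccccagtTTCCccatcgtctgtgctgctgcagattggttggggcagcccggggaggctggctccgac
The GGAA core, counted on both strands over the full 250 bases, occurs 2 times for ROR1, 3 times for IL1RAP, 4 times for STEAP2 and 4 times for XG; the second STEAP2 entry, not shown, holds 3. Among 34961 promoter windows of the same length, 92.7% hold at least 1 match and the median is 3, so these counts are ordinary. The doubled core GGAAGGAA, which contains GGAA 2 times, is found in none of the 4 windows and in 3.06% of all windows. CCGGAA, a longer ETS-type match that contains GGAA, occurs 1 time in the STEAP2 window shown, 0 times in the second, and in 14.5% of all windows. Such matches describe the letters of these windows only.

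Because CD99 lies in the pseudoautosomal region, its rows were checked first. Each table lists CD99 2 times, once for the X copy and once for the Y copy, while XG and the other members have 1 row each. In TC-32 and A673 both CD99 rows hold the same value in every library, and their sum was used. In TC-71 both CD99 rows are listed at 0 in all 6 libraries, and the gene was not analysed there. The zero is not particular to CD99. Of the 45 pseudoautosomal genes with paired rows, 29 have a count in TC-32 and 30 in A673, but 1 does in TC-71, where the largest count on an X row is 3. Among the 14 of these genes with a mean of at least 20 counts on the X row in both other lines, 13 are at 0 in all TC-71 libraries, among them SLC25A6 and VAMP7, which these 2 lines express and which were chosen after their values were seen. The TC-32 and A673 tables are attributed by their names to RSEM and the TC-71 table to Subread. In the reference, 100% of the 4858 exon bases of CD99 lie in blocks identical on chromosome Y, against 18.4% of the 3357 of XG.

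**Figure D1:**
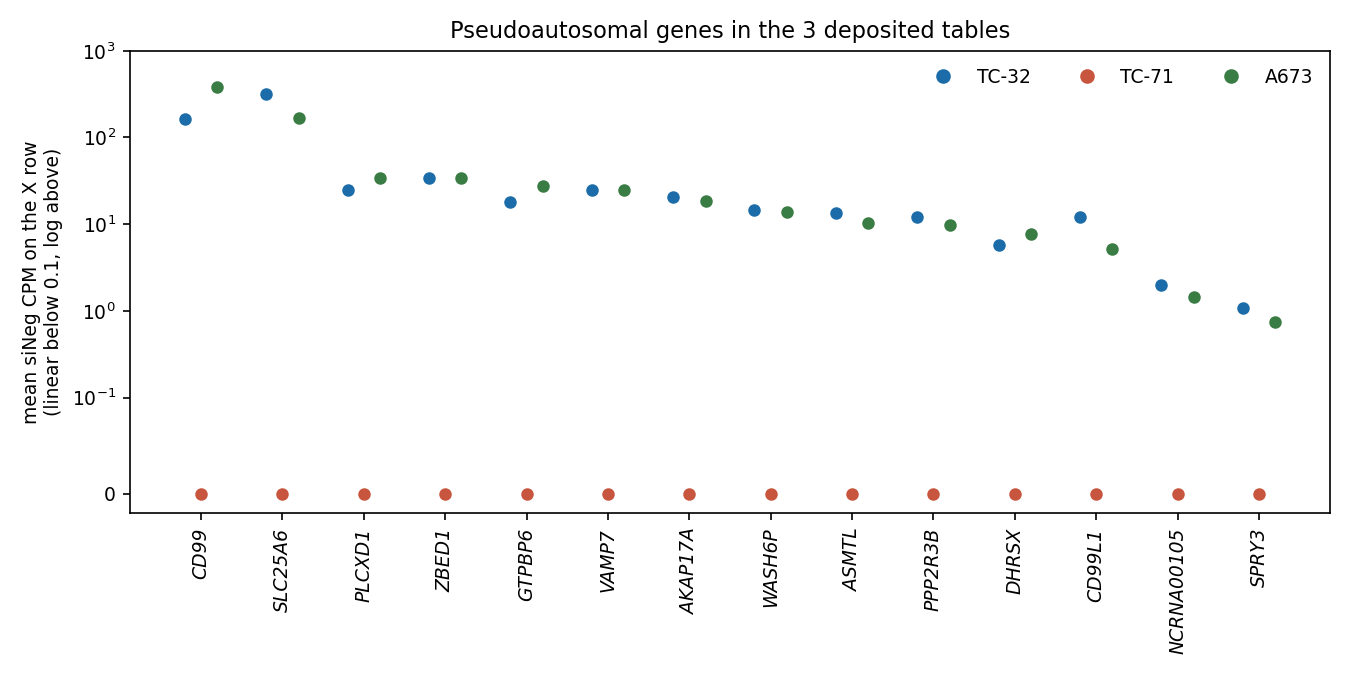
Mean CPM on the X row (siNeg libraries, CPM of the library total, log axis above 0.1 and linear below) for the 14 pseudoautosomal genes with at least 20 counts on average in both TC-32 and A673. All 14 lie at 0 in the TC-71 siNeg libraries, CD99 included, while TC-32 and A673 points lie well above.

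In siFLI1, the 8 genes did not move as a block. With edgeR at an adjusted p under 0.05, 6 of the 7 members tested in TC-32 were called (3 higher, 3 lower), where 81.3% of all 16208 tested genes were called (41.3% higher, 40.1% lower). In TC-71, 7 of 7 were called (2 higher, 5 lower), against 71.9% of all genes (36.8% higher, 35% lower), and in A673 8 of 8 (2 higher, 6 lower), against 71% (36% higher, 35% lower). In A673 the share of higher genes among all calls was 50.7%, and 40.9% with library size alone, which moved the median of all genes to -0.11. With shares this high among all genes, the counts alone say little, and the sizes say more. The same shares are the background for the counts of the gene lists below. The median absolute log2 fold change of the members was 1.66 in A673 (0.42 over all tested genes), 0.90 in TC-71 (0.47) and 0.64 in TC-32 (0.73). Values of siNeg and siFLI1 libraries were fully apart for 8 of 8 tested members in A673 (73.6% of all tested genes), 7 of 7 in TC-71 (73.6%) and 6 of 7 in TC-32 (82.5%). Of the 6 members tested in all 3 lines, ROR1 and IL1RAP were called higher in each and STEAP2 and B4GALNT1 lower in each, as were 19% and 18.8% of the 14233 genes tested in all 3. In bulk libraries, fewer cells that express a gene and less RNA per cell cannot be told apart.

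**Figure D2:**
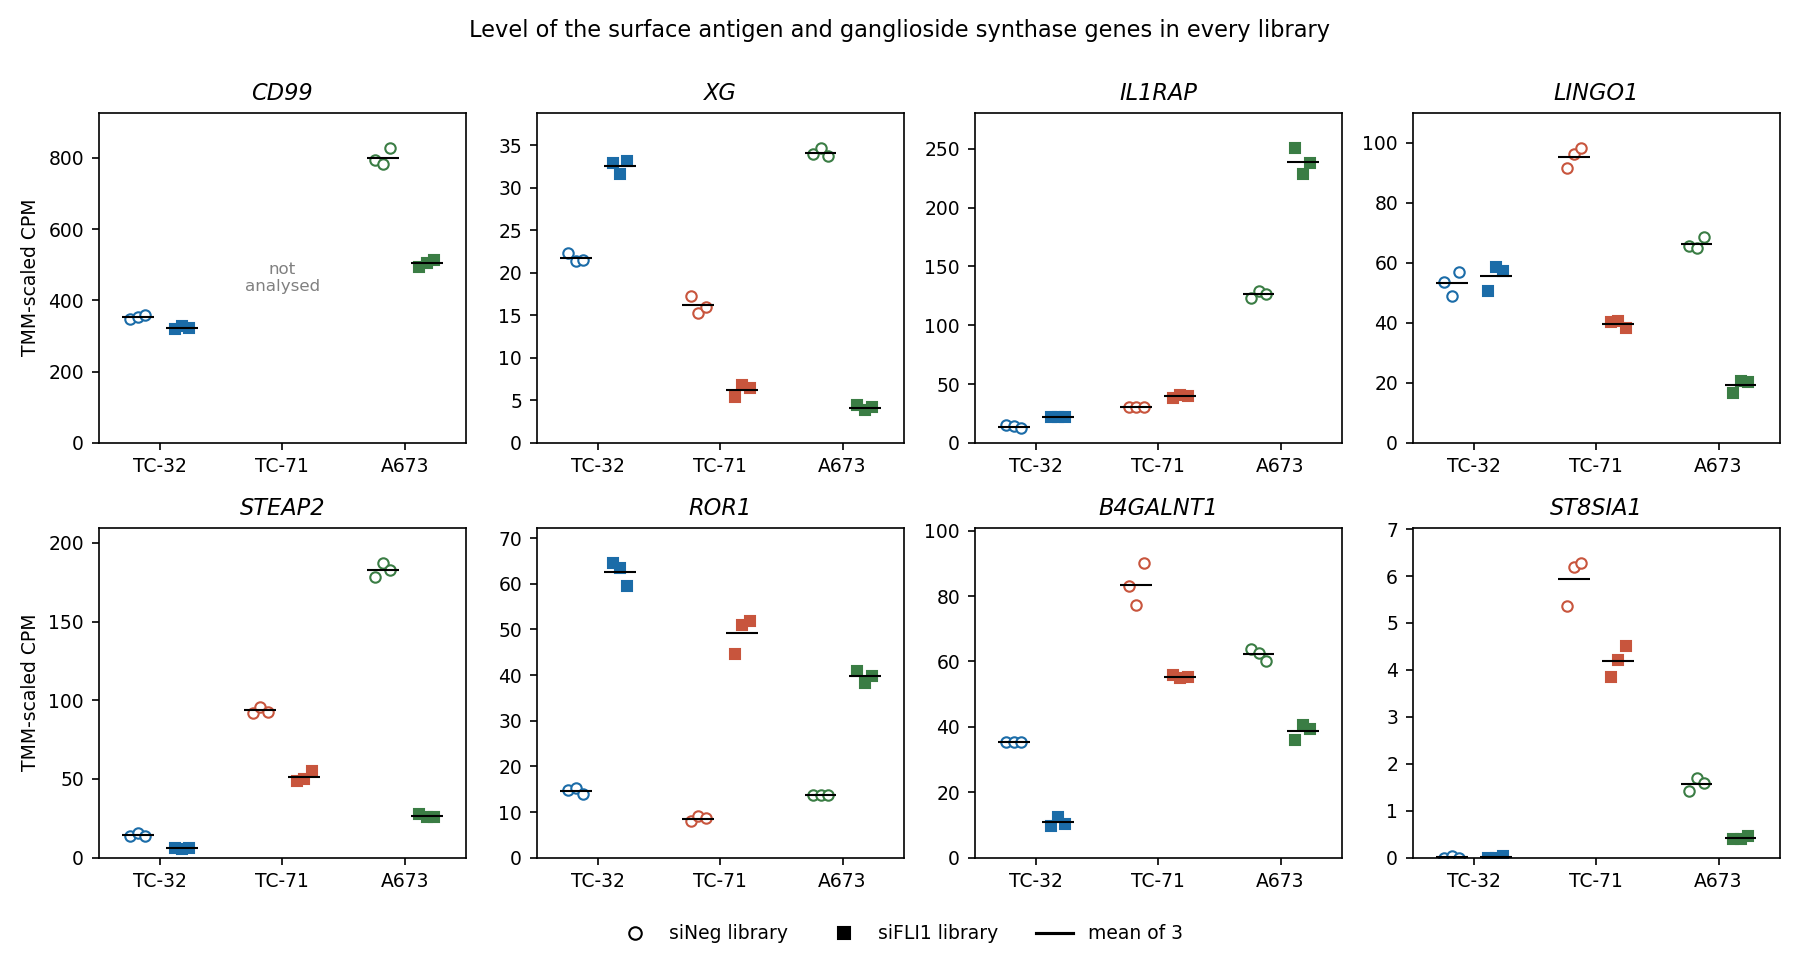
CPM scaled by trimmed mean of M values (TMM) of the 8 genes in each of the 18 libraries, by line, with open circles for siNeg, filled squares for siFLI1 and a line at the mean of 3. ROR1 and IL1RAP squares lie above the circles in each line, STEAP2 and B4GALNT1 squares below, and XG squares lie above in TC-32 and below in TC-71 and A673. CD99 in TC-71 was not analysed and is marked so.

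CD99 (ENSG00000002586.19) spans 2691187 to 2741309 on chromosome X in GENCODE release 44 (GRCh38), which gives all gene positions here. It was the most abundant member in TC-32 and A673 and fell in both, slightly in TC-32. The TC-32 siNeg libraries held 347, 352 and 359 CPM (scaled by TMM over all 18 libraries) and the siFLI1 libraries 319, 328 and 321. The siFLI1 values lay below the siNeg values without overlap (log2 fold change -0.16, SE 0.0392, edgeR adjusted p = 0.000685). In A673, siNeg libraries held 792, 781 and 827 CPM and siFLI1 libraries 494, 506 and 513. The groups stood well apart (log2 fold change -0.67, SE 0.0337, edgeR adjusted p = 2.13e-10). CD99 was thus still at 91.7% of its siNeg level in TC-32 and at 63% in A673. The difference between the lines, TC-32 minus A673, was 0.54 (SE 0.0526, edgeR adjusted p = 2.04e-10), a test in which 62.1% of all genes differed (29.9% higher, 32.2% lower).

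XG (ENSG00000124343.13, chromosome X, 2752040 to 2816500, plus strand) changed in opposite directions between lines. In A673 it went from 33.9, 34.7 and 33.7 CPM in siNeg to 4.4, 3.86 and 4.19 in siFLI1 (log2 fold change -3.04, SE 0.0579, edgeR adjusted p = 3.72e-15). The TC-71 level went from 17.3, 15.3 and 16.0 CPM to 5.39, 6.76 and 6.51 (log2 fold change -1.42, SE 0.0935, edgeR adjusted p = 3.83e-14). Every siFLI1 library of these lines lay below every siNeg library. In TC-32, the XG level rose from 22.3, 21.3 and 21.5 CPM to 32.9, 31.6 and 33.2, with all siFLI1 libraries above siNeg (log2 fold change 0.55, SE 0.0661, edgeR adjusted p = 4.39e-08). The effect in TC-32 exceeded that in A673 by 3.62 (SE 0.0954, edgeR adjusted p = 3.64e-26) and that in TC-71 by 1.96 (SE 0.107, edgeR adjusted p = 3.20e-17), where 53.7% of all genes differed between TC-32 and TC-71 (21% higher, 32.7% lower). A673 and TC-71 also differed, by -1.66 (SE 0.107, edgeR adjusted p = 3.23e-15), where 51.7% of all genes did (23.3% higher, 28.5% lower), and 77.2% of all genes differed in at least 1 of the 3 pairs of lines. The third gene of the family, CD99L2, an X-linked gene outside the pseudoautosomal region, rose in all 3 lines, with log2 fold changes of 1.24 (SE 0.0442, edgeR adjusted p = 2.27e-18) in TC-32, 0.80 (SE 0.0590, 4.89e-13) in TC-71 and 0.59 (SE 0.0405, 7.23e-09) in A673. Of the 3 family genes, 2 rose and 1 fell in TC-32, 1 rose and 1 fell of the 2 tested in TC-71, and 1 rose and 2 fell in A673. Their median log2 fold changes were 0.55, -0.31 and -0.67, against 0.02, 0.02 and -0.00056 over all genes.

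IL1RAP (ENSG00000196083.9, chromosome 3, 190514051 to 190659750, plus strand) rose in each line. Its A673 siNeg libraries held 123, 129 and 127 CPM and its siFLI1 libraries 251, 228.4 and 238 (log2 fold change 0.92, SE 0.0400, edgeR adjusted p = 3.91e-11). In TC-32 the level went from 14.9, 13.9 and 12.5 CPM to 22.3, 22.1 and 21.7 (0.64, SE 0.0810, edgeR adjusted p = 9.34e-08). The TC-71 level went from 30.4, 30.1 and 30.4 CPM to 38.2, 40.8 and 39.7 (0.35, SE 0.0576, edgeR adjusted p = 4.34e-06). The siRNAs did not overlap in any line, though the TC-71 rise was the smallest. The rise in TC-71 was smaller than in A673 by 0.53 (SE 0.0688, edgeR adjusted p = 4.39e-08) and than in TC-32 by 0.29 (SE 0.0849, edgeR adjusted p = 0.00386). TC-32 and A673 differed by -0.24 (SE 0.0794, edgeR adjusted p = 0.00855), and that call was lost without TC-32 siNeg replicate 1 (-0.18, edgeR adjusted p = 0.0742) and with library size alone (-0.12, edgeR adjusted p = 0.188). With library size alone the median of all genes in that test moved from 0.02 to 0.13, and IL1RAP lay 0.26 below the median under both scalings. The share of higher genes among all calls of that test went from 48.2% to 55.5%.

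Genes of the interleukin-1 system were mostly higher in siFLI1 where they were measurable. The list holds 18 genes, IL1RAP among them, so its own rise is part of each count. In TC-32 8 rose and 3 fell among 11 tested. In TC-71 5 rose and 0 fell among 6, and in A673 10 rose and 1 fell among 11. Median log2 fold changes were 0.80, 0.42 and 0.92, the last being the value of IL1RAP itself. Over all tested genes, 41.3% were called higher and 40.1% lower in TC-32, 36.8% and 35% in TC-71, and 36% and 35% in A673. IL1R1, the ligand-binding receptor that pairs with IL1RAP, rose by 3.57 (log2) in TC-32 (SE 0.0994, edgeR adjusted p = 1.38e-20) and by 3.33 in A673 (SE 0.192, edgeR adjusted p = 9.33e-10). It stayed low in A673, at 0.161 CPM in siNeg and 1.63 in siFLI1, and TC-71 libraries held 0 to 2 IL1R1 counts. IL33, a cytokine of the family, fell in TC-32 (-3.14, SE 0.119, edgeR adjusted p = 7.87e-18) and in A673 (-1.77, SE 0.107, edgeR adjusted p = 1.65e-09). The TC-71 libraries held 0 to 3 IL33 counts in siNeg and 126 to 222 in siFLI1, at least 36.8-fold higher than a floor of 3 counts per library (edgeR adjusted p = 2.28e-16). IL1RAP has been reported to act with the cystine transporter SLC7A11, and 6 genes of cystine transport and glutathione synthesis were counted. They gave 3 higher and 1 lower in TC-32, 3 and 2 in TC-71, and 4 and 2 in A673, with medians of 0.25, 0.40 and 0.13. In A673, 2 were higher with library size alone or without siNeg replicate 3 or siFLI1 replicate 3, and 1 was lower without siNeg replicate 1, 2 or 3 or siFLI1 replicate 1 or 3. In TC-32, 2 were lower without siFLI1 replicate 1. The large change in this list was CD44, a hyaluronan receptor that stabilises SLC7A11, which rose by 3.51 in TC-32 (SE 0.0708, edgeR adjusted p = 2.36e-23) and by 6.53 in A673 (SE 0.0653, edgeR adjusted p = 8.65e-18). In TC-71 CD44 had 0 to 1 counts in siNeg and 13 to 24 in siFLI1, at least 3.91-fold above the floor.

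LINGO1 (ENSG00000169783.12, chromosome 15, 77613027 to 77820900, minus strand) fell in 2 of the 3 lines. In A673, siNeg libraries held 65.4, 65.0 and 68.5 CPM and siFLI1 libraries 16.7, 20.6 and 20.2 (log2 fold change -1.79, SE 0.0661, edgeR adjusted p = 5.85e-12). In TC-71 the values were 91.7, 96.1 and 98.2 CPM against 40.1, 40.5 and 38.2 (-1.31, SE 0.0515, edgeR adjusted p = 1.40e-19). Neither line showed overlap between the siRNAs. The TC-32 libraries did overlap, with 53.4, 49.1 and 57 CPM in siNeg and 50.5, 58.5 and 57.3 in siFLI1. Their log2 fold change was 0.030 (SE 0.0650, edgeR adjusted p = 0.684), and its 95% interval, from -0.10 to 0.16, excludes a fall of the size seen in the other lines. The effect in TC-32 differed from that in A673 by 1.86 (SE 0.0925, edgeR adjusted p = 6.41e-18) and from that in TC-71 by 1.33 (SE 0.0945, edgeR adjusted p = 9.86e-14). The fall was also larger in A673 than in TC-71, by -0.52 (SE 0.0906, edgeR adjusted p = 1.07e-05).

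Of 12 genes of the LINGO family and the Nogo receptor complex, 4 rose and 2 fell among 7 tested in TC-32, 3 rose and 5 fell among 8 in TC-71, and 2 rose and 5 fell among 8 in A673. Medians were 0.32, -0.38 and -0.61, and 3 fell in TC-71 without siFLI1 replicate 3. NGFR, the neurotrophin receptor that signals with LINGO1, was called in opposite directions: it rose by 0.32 in TC-32 (SE 0.0570, edgeR adjusted p = 2.08e-05), while its log2 fold change was -1.68 in TC-71 (SE 0.0640, edgeR adjusted p = 6.10e-20) and -3.34 in A673 (SE 0.0600, edgeR adjusted p = 2.05e-15). NGFR shares 27.2% of its exonic sequence with opposite-strand genes. RTN4, which encodes the ligand Nogo, rose in each line by 0.53 to 1.14, and the receptor RTN4R was lower in each, with log2 fold changes from -0.84 to -0.36.

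STEAP2 (ENSG00000157214.13, chromosome 7, 90167590 to 90238137, plus strand) fell in each line, with the largest change in A673. There, siNeg libraries held 179, 187 and 183 CPM and siFLI1 libraries 27.9, 25.6 and 25.9 (log2 fold change -2.79, SE 0.0440, edgeR adjusted p = 5.32e-16). In TC-71 the level went from 92.1, 95.7 and 92.8 CPM to 48.7, 49.9 and 55.3 (-0.90, SE 0.0517, edgeR adjusted p = 1.27e-15). In TC-32 it went from 13.9, 15.7 and 14 CPM to 6.20, 5.44 and 6.25 (-1.32, SE 0.1, edgeR adjusted p = 9.52e-12). All siFLI1 libraries lay below all siNeg libraries of their line. A673 differed from TC-71 by -1.93 (SE 0.0725, edgeR adjusted p = 1.47e-21), and TC-32 from A673 by 1.5 (SE 0.103, edgeR adjusted p = 9.02e-15) and from TC-71 by -0.43 (SE 0.102, edgeR adjusted p = 0.000540).

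The neighbouring gene STEAP1, a surface antigen of Ewing sarcoma in its own right, fell in all 3 lines too, its log2 fold change being -3.02 in TC-32 (SE 0.0998, edgeR adjusted p = 4.72e-19), -1.09 in TC-71 (SE 0.0558, 1.72e-15) and -2.32 in A673 (SE 0.0446, 3.99e-15). It ends at 90164829, before STEAP2 begins. The STEAP family of 5 gave 0 higher and 2 lower among 3 tested in TC-32, 2 and 2 among 4 in TC-71, and 1 and 3 among 4 in A673. Family medians were -1.32, -0.29 and -1.37. STEAP1B was 1 of the 2 higher in TC-71, at an adjusted p of 0.0486 (edgeR), and the count fell to 1 when siNeg replicate 2 or 3 or any siFLI1 replicate was left out, and under 5 of the other settings. STEAP4 held 0 to 1 counts in every library.

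ROR1 (ENSG00000185483.11, chromosome 1, 63774017 to 64181498, plus strand) rose in each line and was, in TC-32 and TC-71, the member with the largest change. The TC-71 siNeg libraries held 7.93, 9.07 and 8.60 CPM and the siFLI1 libraries 44.5, 50.9 and 51.9 (log2 fold change 2.49, SE 0.0757, edgeR adjusted p = 2.70e-22). In TC-32 the level went from 14.8, 15.3 and 13.8 CPM to 64.5, 63.5 and 59.4 (2.06, SE 0.0674, edgeR adjusted p = 4.02e-19). In A673 it went from 13.8, 13.8 and 13.7 CPM to 40.9, 38.3 and 39.8 (1.53, SE 0.0456, edgeR adjusted p = 5.38e-13). Each siFLI1 library exceeded each siNeg library of its line by a wide margin. The rise was smaller in A673 than in TC-71, by -1.003 (SE 0.0912, edgeR adjusted p = 1.97e-11), and TC-32 lay between them, 0.56 above A673 (SE 0.0882, edgeR adjusted p = 1.07e-06) and -0.44 from TC-71 (SE 0.1, edgeR adjusted p = 0.000316).

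Among 18 genes of ROR receptors and their WNT5A partners, 12 rose in each line, and 5 fell in TC-32, 1 in TC-71 (17 tested) and 5 in A673. The TC-71 count of lower genes was 2 without siNeg replicate 1 or siFLI1 replicate 3, and with RLE factors or library size alone. Medians of 0.55, 0.60 and 0.44 stood above those of all genes. WNT5B, a ligand closely related to WNT5A, rose by 1.07 in TC-32 (SE 0.117, edgeR adjusted p = 8.88e-09), 5.22 in TC-71 (SE 0.284, 3.90e-16) and 6.25 in A673 (SE 0.103, 8.21e-16). Its siFLI1 means were 9.05, 5.20 and 26.0 CPM, and its TC-71 siNeg libraries held 0 to 7 counts. The frizzled receptors FZD6 and FZD7 rose in each line, by 0.94 to 1.68 and 0.48 to 1.66. ROR2, the paralogue of ROR1, did not move with it across lines: it rose by 1.52 in TC-32 (SE 0.103, edgeR adjusted p = 8.68e-13), its log2 fold change was -0.73 in A673 (SE 0.0474, edgeR adjusted p = 3.64e-09), and TC-71 held 0 to 1 counts.

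**Figure D3:**
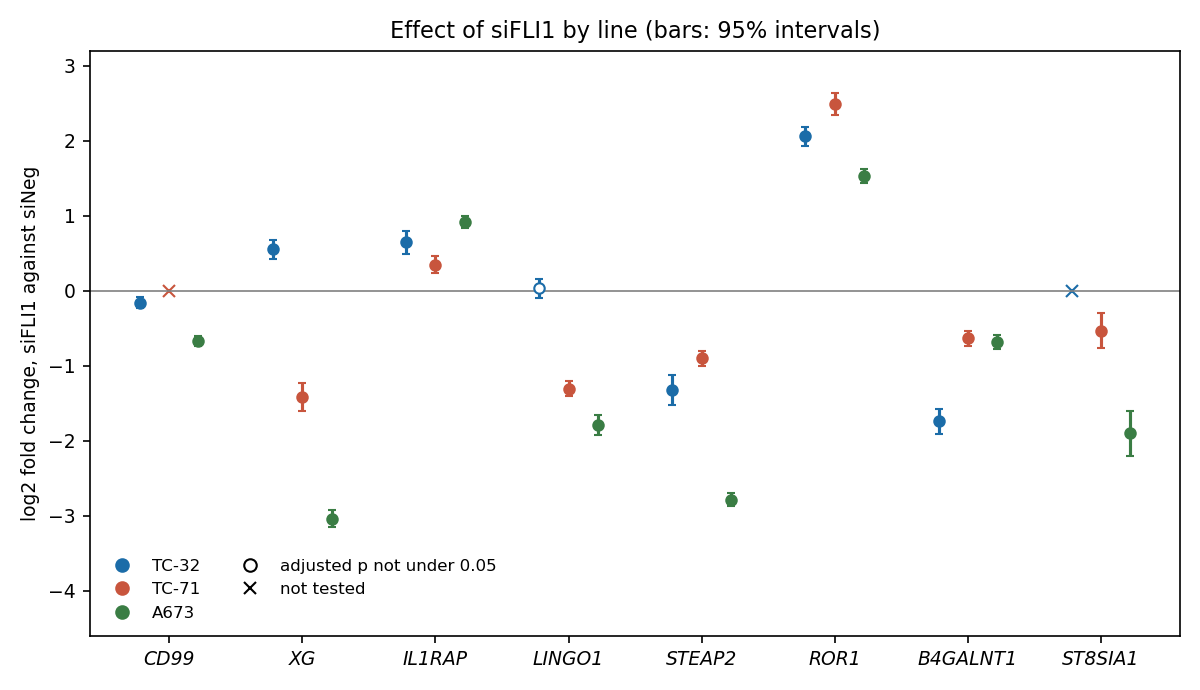
Log2 fold change of siFLI1 against siNeg for each gene and line, from edgeR, with bars for the 95% interval. ROR1 and IL1RAP lie above 0 in each line, XG at 0.55 in TC-32 and -3.04 in A673, and LINGO1 in TC-32 is the open symbol near 0; crosses mark CD99 in TC-71 and ST8SIA1 in TC-32, which were not tested.

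B4GALNT1 (ENSG00000135454.13, chromosome 12, 57623409 to 57633239, minus strand) fell in each line. The largest change was in TC-32, from 35.4, 35.3 and 35.4 CPM to 9.62, 12.4 and 10.2 (log2 fold change -1.74, SE 0.0843, edgeR adjusted p = 1.18e-15). In TC-71 the level went from 83.1, 77.3 and 90.1 CPM to 55.8, 54.9 and 55.3 (-0.64, SE 0.0525, edgeR adjusted p = 6.30e-12). In A673 it went from 63.7, 62.7 and 60.1 CPM to 36.1, 40.5 and 39.3 (-0.69, SE 0.0478, edgeR adjusted p = 8.15e-09). No siFLI1 library reached a siNeg library of its line, and A673 kept 62.1% of the siNeg level, TC-71 66.3% and TC-32 30.5%. The fall in TC-32 was larger than in A673 by -1.02 (SE 0.0956, edgeR adjusted p = 2.27e-11) and than in TC-71 by -1.11 (SE 0.0977, edgeR adjusted p = 7.93e-12). A673 and TC-71 were not called different, with a difference of -0.09 and a 95% interval from -0.25 to 0.07 (edgeR adjusted p = 0.372). B4GALNT1 shares 27.1% of its exonic sequence with opposite-strand genes, and whether the counting used strand is not given, so its values are uncertain to that extent.

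ST8SIA1 (ENSG00000111728.10, chromosome 12, 22063773 to 22437041, minus strand), which supplies the GD3 that B4GALNT1 turns into GD2, was the least abundant member and close to silent in TC-32. There, 4 of the 6 libraries had 0 counts and the other two had 1, so that no change was measurable. The TC-71 libraries held 5.36, 6.18 and 6.28 CPM in siNeg and 3.86, 4.21 and 4.51 in siFLI1 (log2 fold change -0.53, SE 0.118, edgeR adjusted p = 0.000216). In A673 they held 1.43, 1.71 and 1.60 CPM against 0.403, 0.407 and 0.453, which rests on 157 to 190 and 43 to 47 counts (-1.90, SE 0.151, edgeR adjusted p = 3.67e-08). In both lines the siFLI1 libraries lay below all siNeg libraries. The fall was larger in A673 than in TC-71, by -1.40 (SE 0.220, edgeR adjusted p = 1.47e-06). The 2 synthases therefore both fell in TC-71 and A673, while in TC-32 B4GALNT1 fell from a base where ST8SIA1 was at or under 1 count.

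Genes of ganglioside synthesis moved in both directions. The list holds B4GALNT1, counted among the falls in each line, and ST8SIA1, counted among them in TC-71 and A673. Of 16 listed, 6 rose and 6 fell among 13 tested in TC-32, 11 rose and 4 fell among 15 in TC-71, and 7 rose and 5 fell among 14 in A673, with medians of -0.13, 0.53 and 0.06. With library size alone, 4 rose in A673. UGCG, glucosylceramide synthase, which makes the precursor of gangliosides, rose in each line: TC-32 held 53.1 ± 0.415 CPM in siNeg and 157 ± 10.8 in siFLI1, TC-71 13.5 ± 1.61 and 42.5 ± 1.71, and A673 41.7 ± 0.934 and 297 ± 12.1 (SD, n = 3 per group; the smallest log2 fold change was 1.53, edgeR adjusted p = 1.11e-18). ST8SIA5, a sialyltransferase of the later steps, fell in each, by -2.84 in TC-32 (SE 0.125, edgeR adjusted p = 1.11e-15), -0.86 in TC-71 (SE 0.1, 8.12e-09) and -0.72 in A673 (SE 0.0485, 6.02e-09). ST6GALNAC3, which adds a branching sialic acid, rose in each, by 2.45 (SE 0.281, edgeR adjusted p = 8.70e-08), 1.40 (SE 0.124, 2.51e-11) and 1.32 (SE 0.0660, 1.94e-10). B4GALT5, a lactosylceramide synthase that acts between UGCG and GM3 synthase, and ST3GAL5, GM3 synthase itself, were chosen after their values were seen. B4GALT5 had small changes, with log2 values of -0.53 in TC-32 (SE 0.0478, edgeR adjusted p = 2.82e-10), -0.24 in TC-71 (SE 0.0481, 6.94e-05) and 0.09 in A673 (SE 0.0332, 0.0317). ST3GAL5 rose by 1.37 in TC-32 (SE 0.0861, edgeR adjusted p = 2.31e-13) and by 0.14 in TC-71 (SE 0.0595, edgeR adjusted p = 0.0410), and its log2 fold change was -0.24 in A673 (SE 0.0408, edgeR adjusted p = 0.000100).

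Genes of ganglioside breakdown were mostly higher in siFLI1: 10 rose and 2 fell among 13 tested in TC-32, 12 and 2 among 14 in TC-71, and 11 and 1 among 14 in A673, with medians of 0.80, 0.83 and 0.41. Of all tested genes, 41.3%, 36.8% and 36% were called higher in these lines, and 40.1%, 35% and 35% lower. PSAP, the precursor of the saposins that present glycolipids to lysosomal enzymes, rose by 2.17 in TC-32 (SE 0.0402, edgeR adjusted p = 4.93e-24), 1.77 in TC-71 (SE 0.0393, 1.39e-25) and 0.62 in A673 (SE 0.0330, 4.14e-10). CTSA, HEXA and ASAH1, which encode lysosomal enzymes or their protector, were also higher in each line, by 0.54 to 1.90, 0.66 to 1.31 and 0.67 to 1.69. CTSA and HEXA share 21.5% and 14.1% of exonic sequence with opposite-strand genes. In sialic acid supply, 1 gene rose and 4 fell of 6 in TC-32, 1 and 2 in TC-71, and 2 and 3 in A673, with medians of -0.42, -0.04 and -0.14. NANP and CMAS, which complete and activate sialic acid for the sialyltransferases, fell in each line: NANP by -1.38 in TC-32 (SE 0.0919, edgeR adjusted p = 7.22e-13), -0.95 in TC-71 (SE 0.0802, 9.89e-12) and -0.17 in A673 (SE 0.0446, 0.00359), and CMAS by -0.60 (SE 0.0712, 3.84e-08), -0.85 (SE 0.0559, 3.21e-14) and -0.19 (SE 0.0410, 0.000747). Of the 7 genes of competing glycolipid branches, 4 were tested in TC-32 (2 rose, 1 fell), 4 in TC-71 (0 rose, 2 fell) and 7 in A673 (3 rose, 2 fell), with medians of 0.51, -0.16 and 0.37. The TC-71 count fell to 1 without siNeg replicate 1 or 2 or siFLI1 replicate 1 or 2. A4GALT, globotriaosylceramide synthase, rose by 1.01 in TC-32 (SE 0.0869, edgeR adjusted p = 1.11e-10) while its log2 fold change in A673 was -1.16 (SE 0.0958, edgeR adjusted p = 5.64e-08).

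**Figure D4:**
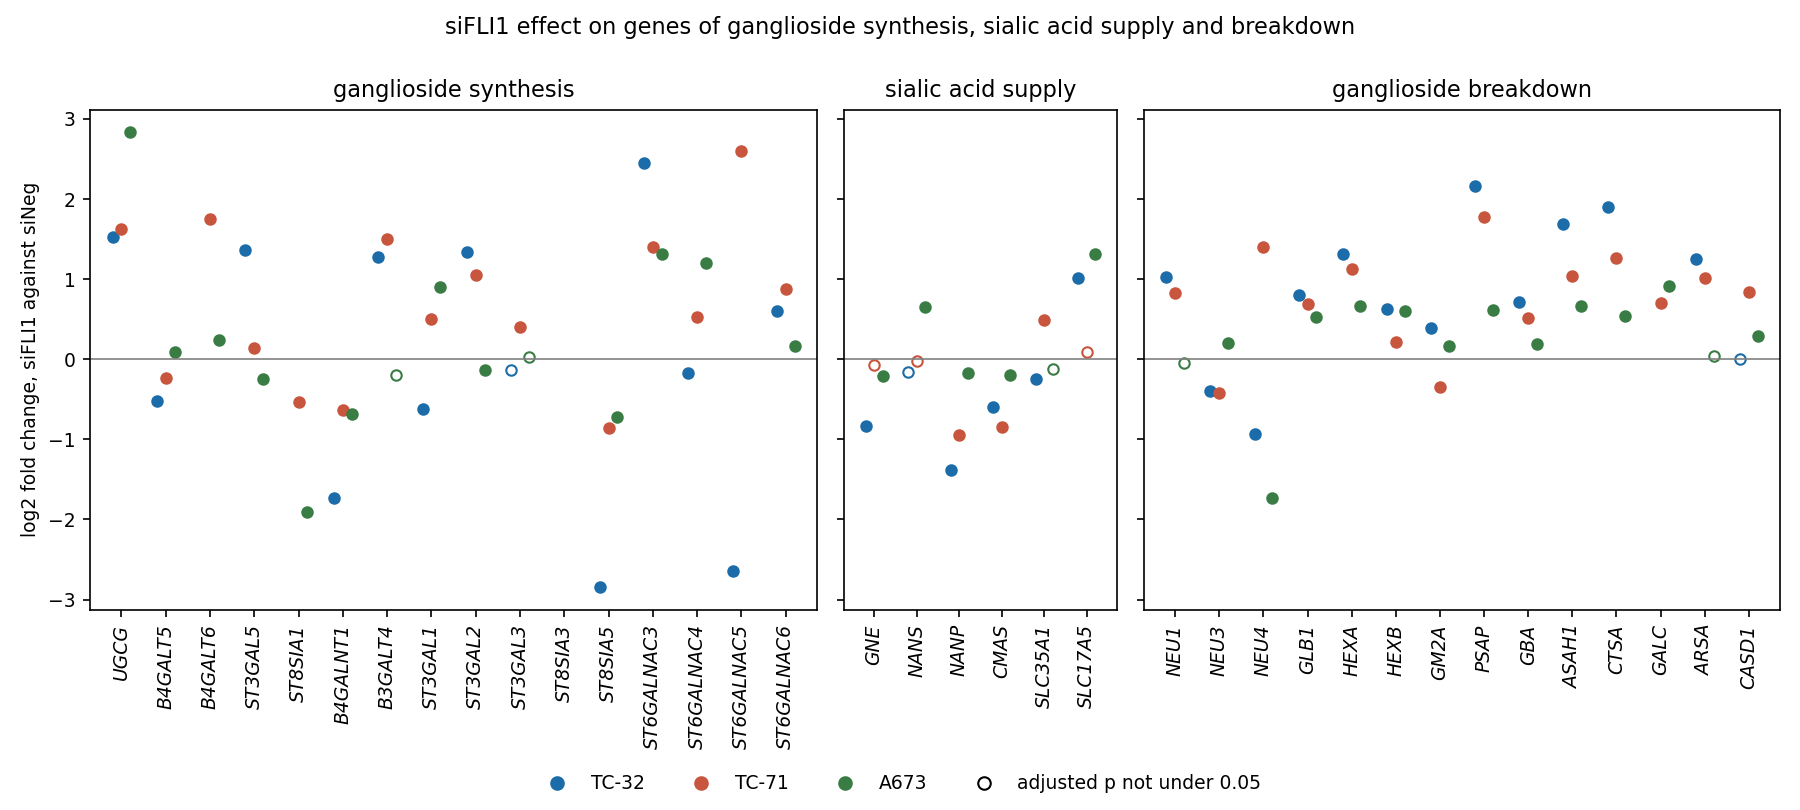
Log2 fold change of siFLI1 against siNeg (edgeR, error bars not drawn) for genes of ganglioside synthesis, sialic acid supply and breakdown, by line, with open circles where the adjusted p is not under 0.05 and no symbol where a gene was not tested. B4GALNT1 and ST8SIA5 lie below 0 in each line and UGCG above, and most breakdown genes lie above 0, with PSAP from 0.62 to 2.17.

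At baseline the members differed widely between and within lines. Levels between genes were compared as siNeg CPM per kilobase of exon. In TC-32 CD99 led with 72.6 ± 1.28 (SD, n = 3), followed by LINGO1 at 9.99, XG at 6.47, B4GALNT1 at 4.48, ROR1 at 2.18, STEAP2 at 1.66, IL1RAP at 1.23 and ST8SIA1 at 0.000925. In A673 CD99 led with 165 ± 4.94, and STEAP2 (21.0), LINGO1 (12.5), IL1RAP (11.3), XG (10.2), B4GALNT1 (7.88), ROR1 (2.05) and ST8SIA1 (0.109) followed. In TC-71, without CD99, the order was LINGO1 (17.9 ± 0.632), STEAP2 (10.7), B4GALNT1 (10.6), XG (4.82), IL1RAP (2.7), ROR1 (1.27) and ST8SIA1 (0.410). The XG value is per kilobase of all its exons, of which 18.4% lie in blocks identical on chromosome Y, and what this does to its TC-71 level was not tested. Within each line the libraries of neighbours in these orders did not overlap, apart from STEAP2 and B4GALNT1 in TC-71. This covers the spread of libraries only. The length used counts all annotated exons of a gene and not the transcripts expressed, so close ranks are uncertain. Taking only the X row of CD99, at 33.5 and 77.9 CPM of the library total per kilobase, leaves it first in TC-32 and A673.

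**Figure D5:**
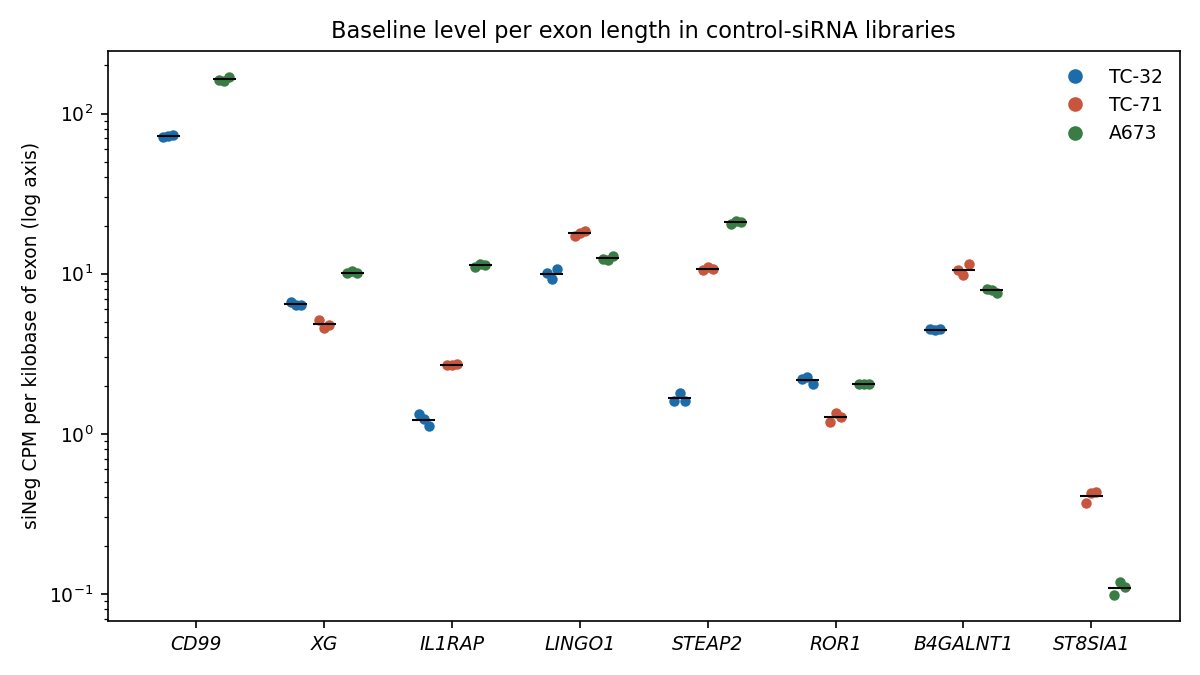
TMM-scaled CPM per kilobase of exon in the siNeg libraries (log axis), with 1 point per library and a line at the mean of 3. CD99 stands at 72.6 in TC-32 and 165 in A673, above all other members, and ST8SIA1 lies lowest. Not drawn are CD99 in TC-71, where it was not analysed, and ST8SIA1 in TC-32, where it is near 0.

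The siNeg levels were compared between lines in a model of all 18 libraries. Here the line cannot be told apart from its table, in comparisons with A673 from its medium, and in those with TC-71 from the counter. Between TC-32 and A673, 7 of 8 members were called lower in TC-32, where 74.4% of all genes were called in either direction (35.1% higher, 39.2% lower). STEAP2 and IL1RAP showed the largest gaps that rest on more than a few counts, 12.6-fold (log2 -3.65, SE 0.0616, edgeR adjusted p = 1.24e-32) and 9.19-fold (log2 -3.20, SE 0.0572, edgeR adjusted p = 6.39e-32). CD99 was 2.27-fold lower in TC-32 (log2 -1.18, SE 0.0376, edgeR adjusted p = 1.28e-22). ROR1 was not called, with a log2 difference of 0.09 and a 95% interval from -0.04 to 0.23 (edgeR adjusted p = 0.232). ST8SIA1 stood at 1.58 CPM in A673 and 5.94 CPM in TC-71, at least 11.7-fold and 44.1-fold higher than a floor of 3 counts per TC-32 library (0.135 CPM at most), and 3.76-fold lower in A673 than in TC-71 (log2 -1.91, SE 0.139, edgeR adjusted p = 1.25e-14).

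Between TC-32 and TC-71, 7 of 7 members were called (2 higher in TC-32, 5 lower), and between A673 and TC-71 7 of 7 (4 higher in A673, 3 lower), where 81.4% of all genes were called in the former (41% higher, 40.4% lower) and 85.7% in the latter (44.7% higher, 41% lower). STEAP2 was 6.43-fold lower in TC-32 than in TC-71 (log2 -2.69, SE 0.0629, edgeR adjusted p = 1.12e-28), and IL1RAP 4.18-fold higher in A673 than in TC-71 (log2 2.06, SE 0.05, edgeR adjusted p = 2.09e-28). LINGO1 and B4GALNT1 were highest in TC-71: LINGO1 was lower in A673 by -0.52 (SE 0.0614, edgeR adjusted p = 2.47e-09) and B4GALNT1 by -0.43 (SE 0.0566, edgeR adjusted p = 2.06e-08). ROR1 was lowest in TC-71, 0.79 below TC-32 (SE 0.0819, edgeR adjusted p = 1.29e-10) and 0.69 below A673 (SE 0.0722, edgeR adjusted p = 9.92e-11). XG was 0.42 higher in TC-32 than in TC-71 (SE 0.0725, edgeR adjusted p = 3.15e-06), and this call was lost with library size alone (0.04, edgeR adjusted p = 0.647). That scaling moved the median of all genes to -0.38 in TC-32 against TC-71 and to -0.27 in A673 against TC-71, and the share of higher among all calls from 50.3% to 35.6% and from 52.1% to 40.4%. Relative to the median of all genes, XG stayed 0.41 to 0.42 higher. Of the XG exon bases, 18.4% lie in blocks identical on chromosome Y, as do all those of CD99, which is listed at 0 in TC-71. The part of this sequence in the XG gaps between TC-71 and the other lines was not tested.

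The pattern of each member over the libraries was set beside that of every other gene tested in all 3 lines, by Pearson's r of log2 CPM over the 18 libraries (12 for CD99). These correlations are descriptions: the libraries form 6 groups that share lines, tables and depth, so few independent points stand behind them. Closest to ROR1 were SEMA4B (r = 0.991) and SSC5D (0.985), and closest to STEAP2 were TMEM37 (0.985) and TERF2IP (0.985). IL1RAP was closest to FKBP14 (0.995) and ANAPC13 (0.995), LINGO1 to MDFI (0.951) and SLC18B1 (0.926), and XG to AMZ2P1 (0.941) and ATP8B3 (0.927). For the synthases the closest were PSMB6 (0.992) and MKKS (0.987) to B4GALNT1, and ZSCAN5A (0.983) and GATM (0.973) to ST8SIA1. The ST8SIA1 values of all TC-32 libraries rest on 0 or 1 counts, so they lie at the floor and are not measured levels. CD99 was closest to KIAA1161 (0.998) and DUSP26 (0.997) over 12 libraries.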

How the data were processed

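RNA was sequenced from 18 libraries, 3 for each of 2 siRNAs in each of 3 lines, prepared with a stranded mRNA kit per the labels. The deposited TC-32 and A673 tables hold expected counts, made with RSEM by the tables' names. The deposited TC-71 table holds counts, made with Subread by its name. Neither is scaled to depth. The submitters' processing notes name cutadapt 4.4, STAR 2.7.3, featureCounts, Subread 2.0.3, limma 3.38.3 and GRCh38/hg38, with no role or order. The annotation release, strand setting and filters are not given in the sources used here. There were 0 unused columns of per-sample values. The line of the TC-32 and TC-71 libraries rests on the table names. A further line and siRNA named in the series text are not analysed here.

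Expected counts were rounded. The X and Y rows of 45 pseudoautosomal genes were summed, and these genes were left out of contrasts with TC-71. Each line was fitted with edgeR 4.0.16 in R 4.3.3 (filterByExpr, TMM, robust quasi-likelihood F-test). Differences between lines came from one model of all 18 libraries, with Benjamini-Hochberg adjustment over all genes tested and calls at an adjusted p under 0.05. Fold changes carry a prior count of 0.125. Levels are CPM on TMM factors of all 18 libraries, so ratios of levels differ slightly from the fitted changes. Depth limits a gene at 0 counts to 3 counts per library (0.0248 to 0.152 CPM), which covers counting error only. Positions and exon lengths are from GENCODE release 44, where 57754 identifiers were found. The members, the 11 gene lists and the tests were chosen with earlier results of these data known. From each list, at most 6 genes were named, those called alike in all lines, called in opposite directions in 2 lines or untestable in a line, with the largest mean absolute change, and for each member the 2 genes most like it (mean log2 CPM of at least 1, prior count 0.5). Other settings tried were DESeq2 1.42.0, limma-voom (limma 3.58.1), RLE factors or library size alone, unrounded counts, a filter at a mean of 10 counts or no filter, the X row alone, the replicate number as a block, only the 12 libraries of the lines compared, and leaving out each library. On simulated data with 200 genes changed 2-fold among 15085 to 18393 tested, 98% to 100% were recovered and 1.96% to 7.83% of calls were false. The changed genes were well expressed in each line, as many rose as fell, and all genes had the same set spread. In the real data most genes were called, so these rates do not carry over to low genes or to the scaling. Replicates with the same number did not deviate together (correlations from -0.064 to 0.072), and each pair of replicates differed by more than sampling noise (chi-square per degree of freedom of at least 2.52).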

Additional observations from a re-analysis of the deposited data

Results flagged for a closer look

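By the interaction test in edgeR, all 8 members responded differently to siFLI1 in at least 1 pair of lines. All differences are of log2 fold changes. For TC-32 against A673 they were 0.54 for CD99, 3.62 for XG, -0.24 for IL1RAP, 1.86 for LINGO1, 1.5 for STEAP2, 0.56 for ROR1 and -1.02 for B4GALNT1. Against TC-71, TC-32 differed by 1.96 for XG, 0.29 for IL1RAP, 1.33 for LINGO1, -0.43 for STEAP2, -0.44 for ROR1 and -1.11 for B4GALNT1. A673 differed from TC-71 by -1.66 for XG, 0.53 for IL1RAP, -0.52 for LINGO1, -1.93 for STEAP2, -1.003 for ROR1 and -1.40 for ST8SIA1. Of all genes, 51.7% to 62.1% differed in a single pair and 77.2% in at least 1 pair, the background for the 8 members. The depth of FLI1 knockdown differed between lines in the order TC-32, TC-71, A673, and its part in these differences was not tested.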

How the results depend on the processing

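Over all alternatives, 1249 of 1255 values of single genes kept their direction and side of the threshold. These values take in FLI1 and leave out ST8SIA1 wherever TC-32 was involved. Of 531 counts of members, 528 stayed within 1.5 times the main count, so smaller shifts in a count are not shown by this. With library size alone, 1 member was lower in the effect of TC-32 against A673 (2 otherwise) and 1 was higher in the baseline of TC-32 against TC-71 (2 otherwise). When single libraries were left out, members lower in the effect of TC-32 against A673 numbered 1 to 2. With no low-count filter, ROR1 at baseline in TC-32 against A673 was -0.0065 (edgeR adjusted p = 1), and LINGO1 in TC-32 was -0.036 without siNeg replicate 2 and -0.0236 without siFLI1 replicate 2, in a range from -0.036 to 0.086 over the left-out libraries. Neither was called under any setting. Of 990 counts over gene lists, 36 moved by more than 1.5 times. Beside those named with the lists, these were lower counts of 1 for competing branches in TC-71 with DESeq2 and with the replicate block, of 1 for cystine transport in A673 with that block, and of 2 for breakdown in A673 with library size alone, and with no filter lower counts of 2 for competing branches in TC-32 and for the interleukin-1 list in A673, and 4 higher for the LINGO list in A673. The causes were not tested. Same-numbered replicates share only a number. With the replicate number as a block, 65 of 65 single-gene values kept their direction and call. Under that block 27 of 27 member counts and 64 of 66 list counts stayed within 1.5 times the main count. At these depths ST8SIA1 in TC-32 could not be measured.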

Other observations

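Other surface antigens proposed for Ewing sarcoma moved in both directions in siFLI1. Of 23 genes, 13 rose and 8 fell among 23 tested in TC-32, 13 rose and 5 fell among 20 in TC-71, and 15 rose and 8 fell among 23 in A673. Their median log2 fold changes were 0.40, 0.34 and 0.68, and of the 20 tested in all 3 lines 8 rose and 3 fell in each, where 19% of all genes rose and 18.8% fell in each. The 3 that fell were STEAP1, SLCO5A1, an organic anion transporter family member, and ADGRG2, an adhesion G protein-coupled receptor. The log2 fold change of SLCO5A1 was -4.09 in TC-32 (SE 0.0653, edgeR adjusted p = 3.34e-25), -1.70 in TC-71 (SE 0.0422, 1.98e-24) and -3.11 in A673 (SE 0.0371, 4.40e-17). ADGRG2 had -3.70, -1.11 and -2.95.

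The largest rises in that list were those of L1CAM, a neural adhesion molecule, and NT5E, which encodes CD73, an enzyme that makes adenosine. For L1CAM, siNeg libraries of TC-32 averaged 1.34 ± 0.229 CPM and siFLI1 libraries 440 ± 32.6 (SD, n = 3 per group), those of TC-71 0.384 ± 0.178 and 16.0 ± 0.564, and those of A673 2.43 ± 0.556 and 141 ± 10.9. NT5E averaged 56.2 ± 5.26 against 234 ± 6.27 CPM in TC-32, 0.475 ± 0.0931 against 83.4 ± 5.46 in TC-71, and 44.1 ± 1.27 against 832 ± 49.2 in A673. No siFLI1 library overlapped a siNeg library for either gene. CXCR4, a chemokine receptor, went from 155 ± 2.96 to 8.67 ± 1.27 CPM in TC-32 and from 5.16 ± 0.260 to 0.174 ± 0.0870 in A673, while TC-71 held 0 to 4 counts.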
